A study of Equus caballus with 24 samples.

Results

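FAM117A is 1 of the 24232 genes in the table of reads of Debao ponies (DPs) and Mongolian horses (MHs). It was chosen by its mean level in the DP long bone libraries, which was the highest of all genes, so its level there is a description and is not tested. It was found by its symbol, which 1 row of each deposited table carries (ENSECAG00000008346, with a gene length of 1589 bases in the files). RNA came from the pituitary and from the epiphysis (the end) of a long bone of female horses of both breeds, juvenile or adult. The 24 libraries form 8 groups of 3, named by breed, tissue (P or LB) and stage (J or A). For DPs these are DPPJ, DPPA, DPLBJ and DPLBA, and for MHs they are MHPJ, MHPA, MHLBJ and MHLBA. The labels name no treatment, and breed cannot be told apart from anything else that differed between the horses sampled. Levels are given as RPKM, reads scaled by the length of the gene and by the depth of the library, which can be compared between genes.

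FAM117A encodes a protein for which few functions have been described, and it belongs to a small family with FAM117B and GLCCI1. It is not among the genes usually taken as markers of bone. Type I collagen is the main protein of bone matrix and is built from chains encoded by COL1A1 and COL1A2. Osteoblasts secrete it together with other matrix proteins, such as SPARC (osteonectin), SPP1 (osteopontin), IBSP (bone sialoprotein) and BGLAP (osteocalcin), under control of transcription factors such as RUNX2 and SP7. In the files, 0 rows carry the symbol COL1A1, and 8077 rows carry no symbol, so COL1A2 (ENSECAG00000024740, gene length 4311 bases) was the type I collagen gene that FAM117A could be compared with.

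The tissues were checked against marker genes before levels were compared. The 22 osteoblast and osteocyte genes summed to between 3730 and 34847 RPKM in the long bone libraries and to at most 1570 RPKM in the pituitary. The 12 pituitary hormone and lineage genes summed to between 40262 and 55192 RPKM in DPPJ, but to between 34.2 and 112 RPKM in MHPJ. GH1, which encodes growth hormone, was at 0, 3.36 and 0.12 RPKM in the MHPJ libraries, at 6.47 in DPPA replicate 1 and at 0.33 in MHPA replicate 1, against at least 6597 in each of the other 7 pituitary libraries. These 5 libraries were therefore labelled pituitary but nearly lacked its defining hormone. Between 11433209 and 27007342 reads per library were counted on genes.

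In the long bone, FAM117A was at 34379, 3261 and 14313 RPKM in the DPLBJ libraries. It was at 4434, 43321 and 15359 RPKM in DPLBA. In the MH long bone it was at 3651, 10641 and 3882 RPKM in MHLBJ and at 937, 11798 and 1933 RPKM in MHLBA. Each of these groups held libraries that differed several-fold among themselves, and the lowest DP libraries lay inside the range of the MH libraries. The highest and lowest of the 12 long bone libraries differed 46.2-fold.

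In the pituitary, FAM117A was at 103, 123 and 97.3 RPKM in DPPJ and at 166, 107 and 140 RPKM in DPPA. It was at 243, 221 and 226 RPKM in MHPJ and at 152, 114 and 85.7 RPKM in MHPA. All pituitary libraries were below all long bone libraries, and the lowest long bone library was 3.85-fold above the highest pituitary library. The 3 MHPJ libraries lay above the other 9 pituitary libraries and varied little among themselves.

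**Figure D1:**
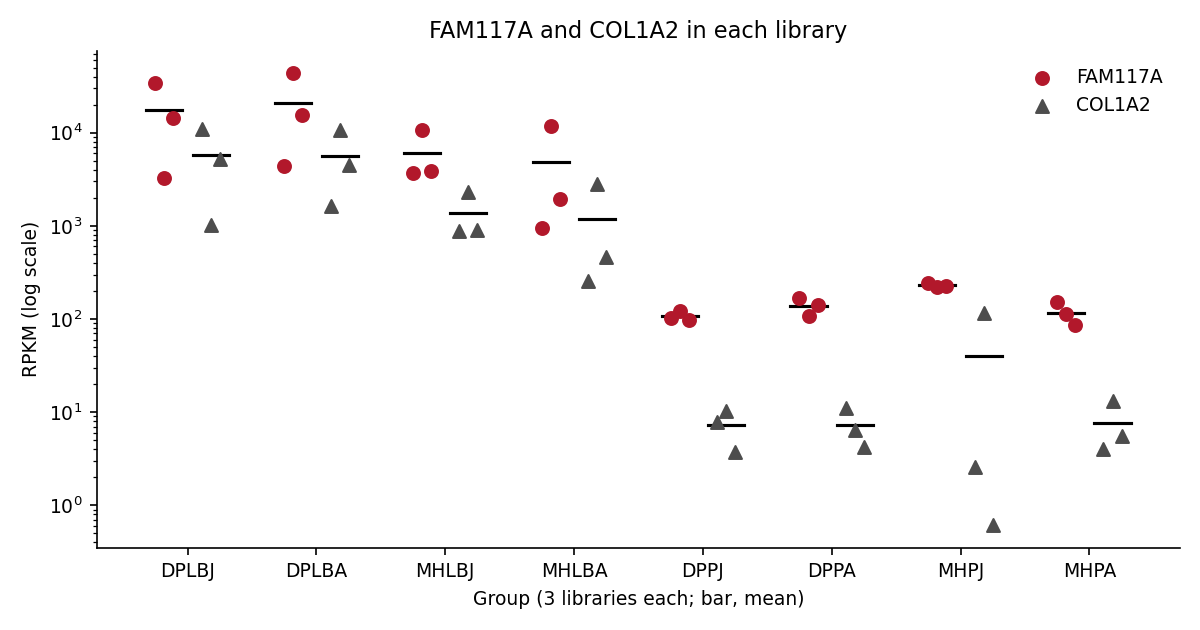
FAM117A (circles) and COL1A2 (triangles) in each of the 24 libraries, in RPKM on a log scale, by group, with the mean of the 3 libraries as a bar. The lowest FAM117A level in the long bone was 937 RPKM and the highest in the pituitary was 243 RPKM, while COL1A2 was below FAM117A in all libraries shown.

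By mean RPKM, the groups were ordered DPLBA (21038 ± 20056, SD, n = 3), DPLBJ (17318 ± 15775), MHLBJ (6058 ± 3970), MHLBA (4890 ± 6004), MHPJ (230 ± 11.7), DPPA (138 ± 29.8), MHPA (117 ± 33.1) and DPPJ (108 ± 13.6). Neighbours in this order had overlapping ranges, except MHLBA and MHPJ, and MHPJ and DPPA, which did not overlap. Over the 6 DP long bone libraries FAM117A had a mean of 19178 ± 16266 RPKM. The next gene, SPP1, had 8373 ± 4133 RPKM and was followed by the mitochondrial gene MT-CO1 with 8201, the ribosomal protein genes RPL35 with 6613 and RPS6 with 5911, and MT-ATP8 with 5824 RPKM. The first place of FAM117A in the mean was not shared by every library. It ranked first by RPKM in 3 of the 6 DP libraries and in 1 MH library, MHLBA replicate 2, but 36th in DPLBJ replicate 2 and 83rd in MHLBA replicate 1.

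As a share of all reads counted on genes, FAM117A took 7.05%, 0.680% and 2.80% in DPLBJ and 0.887%, 9.48% and 3.11% in DPLBA. It took 0.806%, 2.17% and 0.839% in MHLBJ and 0.183%, 2.43% and 0.423% in MHLBA. The 95% Wilson interval of the highest share ran from 9.47% to 9.49%, and that of the lowest from 0.182% to 0.185%. Intervals of this kind cover counting error only, and the spread between libraries of a group was far larger. In the pituitary the share was between 0.0181% and 0.0556%, from 2576 to 8989 reads. The length that reads and RPKM together imply for FAM117A was 1589 bases in the long bone libraries, to within 1 base, which is the length listed for it. This shows only that the RPKM was computed with the listed length, and not which transcript the reads came from.

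COL1A2 followed FAM117A from library to library in the long bone. In DPLBJ it was at 11008, 1032 and 5277 RPKM, and in DPLBA at 1631, 10631 and 4545 RPKM. In MHLBJ it was at 889, 2312 and 913 RPKM, and in MHLBA at 258, 2800 and 461 RPKM. Within each group the highest and the lowest FAM117A library was also the highest and the lowest COL1A2 library. FAM117A was above COL1A2 in all 12 long bone libraries, by between 2.71 and 4.60 times per unit of length. The ratio was 3.19 ± 0.505 (SD, n = 6) in the DP libraries and 4.17 ± 0.314 in the MH libraries, a difference that was not tested because the DP levels chose the gene. On the scale of reads, not corrected for length, the log2 ratio of FAM117A to COL1A2 was 0.42 ± 0.264 over the 12 libraries, while each gene alone had an SD of 1.61 and 1.66 in log2 CPM (reads per library, put on 1 scale by TMM factors).

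The correlation between FAM117A and COL1A2 over the 12 long bone libraries, on log2(CPM + 1), was r = 0.988, with Spearman's rho at 0.986. These values and those of the DP libraries alone are a description with no test, since the DP levels chose the gene. They were set beside the 9237 genes with a mean of at least 10 CPM in this tissue. When DPLBA replicate 2 and DPLBJ replicate 1 were left out, as the 2 that lie farthest from the COL1A2 median, r was 0.977. With the group means removed it was 0.995. COL1A2 had the highest r with FAM117A of all 9237 genes, both over the 12 libraries as they are and with the group means removed. Over the 6 DP libraries r was 0.992 and rho was 0.943. Over the 6 MH libraries, whose levels did not choose the gene, r was 0.998 (exact permutation test, two-sided, P = 0.00417, adjusted P = 0.450 over the 9237 genes) and rho was 0.943 (exact permutation P = 0.0167). The relation did not pass the adjustment over all genes. With 6 libraries this test can give no P below 0.00139, and 0 of the 9237 genes passed, so the adjusted P cannot decide about the relation. Without the 2 farthest libraries of each breed, r was 0.972 over 4 DP libraries and 0.992 over 4 MH libraries.

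**Figure D2:**
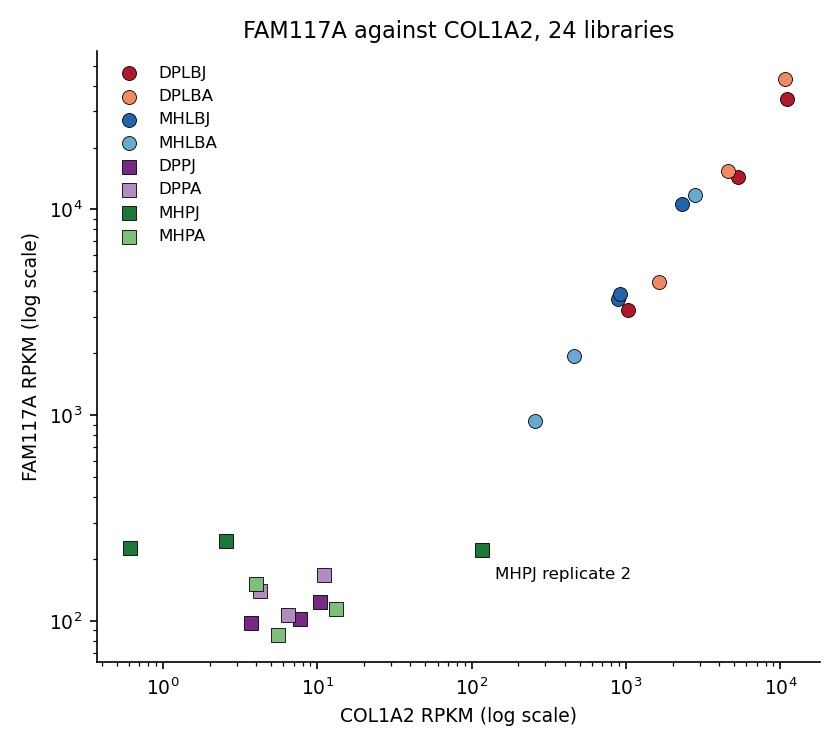
FAM117A against COL1A2 in RPKM, both on log scales, in the 24 libraries, with long bone as circles and pituitary as squares. The long bone libraries lie along a line (r = 0.988 on log2(CPM + 1)), and the pituitary libraries do not (r = 0.014), including MHPJ replicate 2, which had a COL1A2 level of 117 RPKM.

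The ratio to COL1A2 was also computed for every other gene. Over the 12 long bone libraries FAM117A had the smallest SD of this log2 ratio of 9237 genes, 0.264. The next was SMPD3, a sphingomyelinase of mineralising cells, with 0.330, and the median of all genes was 1.75. Within the MH libraries FAM117A ranked first again, with 0.111 against 0.174 for SMPD3. Within the DP libraries it ranked second with 0.219, after COL5A1, a chain of type V collagen, with 0.178. In the pituitary the SD for FAM117A was 1.87, rank 5884 of 10116 genes and close to the median of 1.83.

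**Figure D3:**
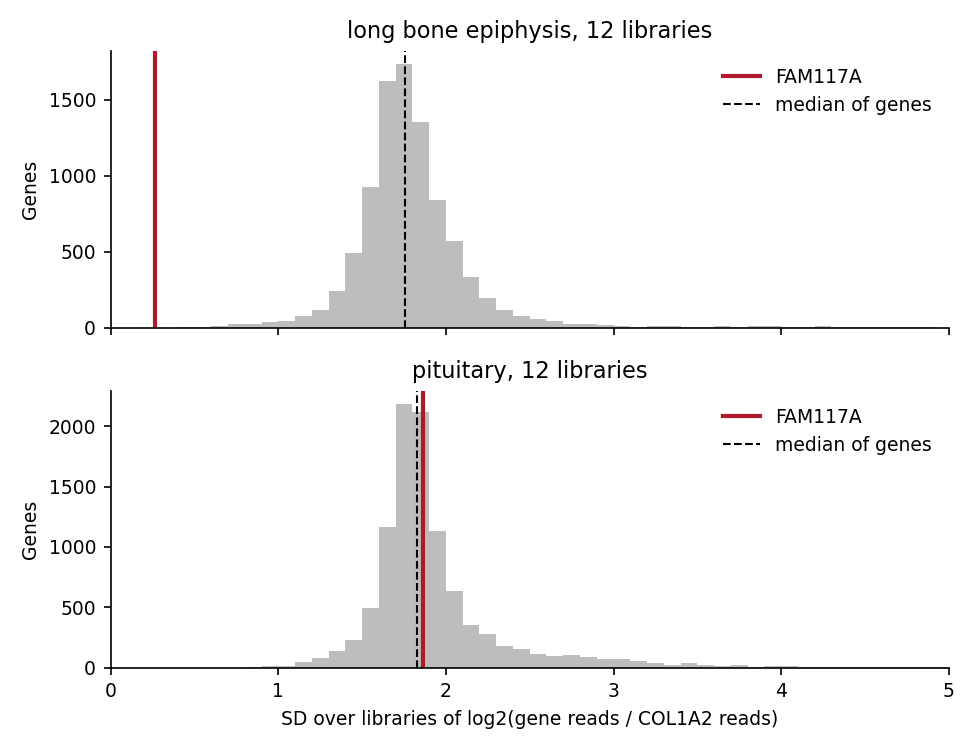
Number of genes by the SD, over 12 libraries, of the log2 ratio of their reads to those of COL1A2, in the long bone epiphysis and in the pituitary. The red line is FAM117A, at 0.264 in the long bone, below every other gene, and at 1.87 in the pituitary, and the dashed line is the median of genes.

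In the pituitary, FAM117A did not follow COL1A2. COL1A2 was at 7.74, 10.4 and 3.69 RPKM in DPPJ, at 11.0, 6.45 and 4.26 in DPPA, at 2.57, 117 and 0.610 in MHPJ and at 4.01, 13.2 and 5.51 in MHPA. Its levels in MHPJ differed 192-fold between replicates 2 and 3, whereas FAM117A was at 221 and 226 RPKM in the same libraries. Over the 12 pituitary libraries r was 0.014 (permutation test, two-sided, P = 0.968, adjusted P = 0.978), rho was -0.16 (permutation P = 0.621, adjusted P = 0.719), and r without MHPJ replicates 2 and 3 was -0.23. This was rank 4529 among 10116 genes. Without MHPJ replicate 2 alone r was -0.53 (permutation P = 0.0883).

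MHPJ replicate 2 stood apart from the other pituitary libraries in genes of connective tissue. COL3A1, a collagen of soft connective tissue, was at 44.0 RPKM there, against 1.22 and 0.420 in the other MHPJ libraries. SPARC was at 1263 RPKM, against 104 and 142. The log2 ratio of FAM117A reads to COL1A2 reads was -0.52 in this library, below the lowest long bone value of -0.00047. The pituitary library with the most COL1A2 thus had a FAM117A level close to those of the other MHPJ libraries.

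The osteoblast and osteocyte genes differed widely in how closely they followed FAM117A in the long bone. Of the 22 genes, 21 had a positive r with FAM117A over the 12 libraries, with a median of 0.744 against -0.048 for all 9237 genes, and 6 were above 0.9, against 0.530% of all genes. Among them were COL1A2, SPARC (0.965), SMPD3 (0.949), SERPINF1 (0.917), which encodes an antiangiogenic secreted protein of bone, and FKBP10 (0.906), a collagen chaperone. SP7, a transcription factor required for osteoblasts, had r = 0.893. Not all osteoblast genes were like this. RUNX2, the earlier factor, had r = 0.319, SPP1 0.547, IBSP 0.719 and ALPL, the phosphatase of mineralisation, 0.630. BGLAP had -0.101, the osteocyte genes MEPE and SOST had 0.081 and 0.158, and TNFRSF11B, an inhibitor of osteoclast formation, had 0.072.

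The single libraries show the same contrast between members. SPARC was at 8215, 968 and 4685 RPKM in DPLBJ and at 2146, 5864 and 3616 RPKM in DPLBA, so in both DP groups its order of libraries was that of FAM117A. SPP1 was at 3850, 3987 and 9192 RPKM in DPLBJ and at 14899, 8369 and 9940 RPKM in DPLBA, where its highest library was the lowest for FAM117A. BGLAP was at 90.2, 0 and 112 RPKM in DPLBA, and its 0 fell in the library with the most FAM117A.

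**Figure D4:**
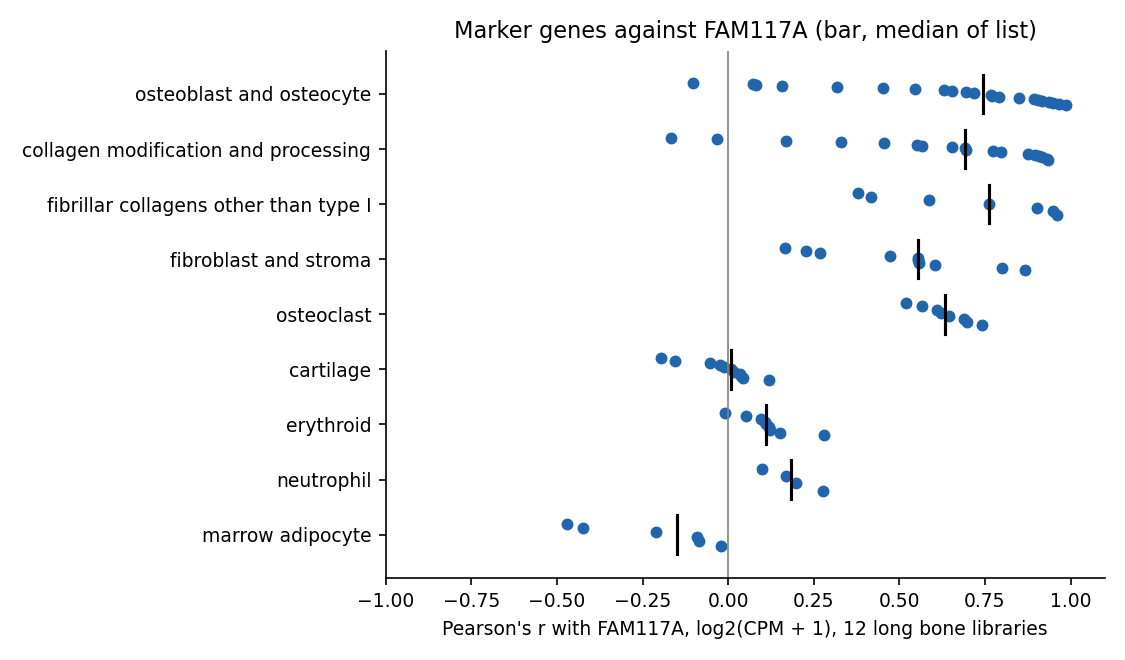
Pearson's r of marker genes with FAM117A over the 12 long bone libraries, on log2(CPM + 1), with 1 point per gene and the median of each list as a bar. Osteoblast, collagen-processing and fibrillar collagen genes lie to the right, with medians of 0.744, 0.693 and 0.763. Cartilage, erythroid, neutrophil and adipocyte genes lie around 0 with both breeds pooled. Within the breeds the cartilage median was -0.58 in DP and -0.57 in MH, and the osteoclast median 0.31 and 0.84.

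Of the genes that modify and process collagen, 16 of 18 had a positive r, with a median of 0.693, and 4 were above 0.9. These were ADAMTS2 (0.935) and BMP1 (0.907), proteases that trim procollagen, LOX (0.931), which cross-links collagen, and P4HA2 (0.915), a subunit of prolyl hydroxylase. All 7 fibrillar collagen genes other than type I had a positive r, with a median of 0.763, and COL5A2 and COL5A1 had 0.962 and 0.949. The osteoclast genes had a median of 0.633 and the stromal genes 0.555. Cartilage genes (0.007), erythroid genes (0.111), neutrophil genes (0.184), marrow adipocyte genes (-0.15) and skeletal muscle genes (-0.46) had lower medians. These points share their 12 libraries and are not independent of each other. Within each breed, over 6 libraries, the cartilage median was lower, at -0.58 in DP and -0.57 in MH, with 0 genes positive in either. The neutrophil median was -0.68 in DP and 0.14 in MH, the erythroid median -0.32 and 0.013, and the adipocyte median -0.30 and 0.38. The osteoclast median was 0.31 in DP and 0.84 in MH. For the osteoblast genes it was 0.66 and 0.81, and for the genes that process collagen 0.65 and 0.52. In MH the osteoclast genes thus followed FAM117A about as closely as the osteoblast genes did.

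The 10 genes most like FAM117A in the long bone, by r on log2(CPM + 1) over 12 libraries, were COL1A2 (0.988), FKBP7 (0.968), SPARC (0.965), COL5A2 (0.962), ITGA11 (0.959), RHBDL2 (0.956), CDH15 (0.953), ADAMTS14 (0.953), MAMDC2 (0.950) and SMPD3 (0.949). FKBP7 is a prolyl isomerase of the endoplasmic reticulum, ITGA11 a collagen receptor subunit and ADAMTS14 a procollagen protease. In the pituitary the 10 genes most like FAM117A were KLHL3 (0.976), SPTBN1 (0.964), FYN (0.963), LRP1 (0.958), P4HA3 (0.956), MPRIP (0.954), SDC3 (0.952), 1 gene without a symbol (ENSECAG00000010552, 0.946), CNKSR2 (0.944) and SLC35F1 (0.944). No gene was in both lists, and KLHL3 had r = -0.15 in the long bone. In the pituitary the higher level of FAM117A in the 3 MHPJ libraries enters each of these values, and with group means removed r was between 0.779 for CNKSR2 and 0.958 for FYN. DPPA and MHPA each hold libraries with and almost without GH1, a split that removing group means leaves in place. Over the 12 pituitary libraries 118 of 10116 genes had r above 0.9, and 32.6% had an adjusted permutation P under 0.05. No r with the hormone or myelin genes is given, because their levels put the pituitary libraries in separate clusters.

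FAM117A was next compared with its neighbours on the chromosome and with its relatives. In the RefSeq annotation of another horse assembly (TB-T2T), 10 protein-coding genes lie between FAM117A and COL1A1, and 5 of them have a row in the files. Together with the genes outside this interval, 9 neighbours were measured, with means of 0.383 RPKM (SAMD14) to 24.8 RPKM (SPOP) in the long bone. All were far below FAM117A. Their r with FAM117A in the long bone ran from -0.36 for KAT7, a histone acetyltransferase that lies next to FAM117A, to 0.792 for XYLT2, a xylosyltransferase of proteoglycan synthesis that lies near COL1A1. SLC35B1, on the other side of FAM117A, had r = 0.110. Of the relatives, FAM117B was between 1.02 and 8.80 RPKM in the long bone and GLCCI1 was between 8.36 and 42.8 RPKM, with an r with FAM117A of -0.32 for FAM117B and -0.31 for GLCCI1.

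Rows without a symbol were searched for genes like FAM117A, since a COL1A1 row could be among them. Of the 49 genes with r above 0.9 in the long bone, 0 lacked a symbol. The highest r of a row without a symbol was 0.864. Of these rows, 16 had a mean above 1000 RPKM in the DP long bone. Whether reads of a neighbouring or similar gene are counted on FAM117A was not tested, as reads and genome sequence were not used here.

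The breed comparisons in the long bone are given for FAM117A as a description. FAM117A was 1.64 ± 0.881 (SE) higher on the log2 scale in DPLBJ than in MHLBJ and 2.25 ± 1.21 higher in DPLBA than in MHLBA (edgeR). Without DPLBJ replicate 1 the first value was 0.57, and without DPLBA replicate 2 the second was 1.06. A gene was called where edgeR gave a P below 0.05 before adjustment together with a change of more than 2-fold. This call was met by 13.8% of all tested genes between DPLBJ and MHLBJ and by 18.3% between DPLBA and MHLBA. COL1A2 was called higher in DPLBJ, by 2.19 ± 0.871 (edgeR, P = 0.0388, adjusted P = 0.257, exact permutation P = 0.2). In DPLBA it was higher by 2.38 ± 1.11 and was not called (edgeR, P = 0.0650, adjusted P = 0.237, exact permutation P = 0.2). The exact permutation test compares mean log2(CPM + 1) of 3 libraries with 3, is two-sided and cannot give a P below 0.1, so the calls rest on the edgeR P.

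Of the 22 osteoblast and osteocyte genes, 10 were called higher and 0 lower in DPLBJ, where 8.33% of all genes were called higher and 5.47% lower, and none of the 10 had an adjusted P under 0.05. Their median log2 difference was 1.36, against 0.053 for all genes. In DPLBA, 14 were called higher and 0 lower, where 10.4% of all genes were called higher and 7.87% lower, with a median of 1.75 against -0.024, and 2 of them had an adjusted P under 0.05. SPARC was higher by 1.85 ± 0.783 in juveniles and by 1.85 ± 0.787 in adults. SP7 was higher by 1.94 ± 0.716 in juveniles and by 2.86 ± 0.677 in adults. RUNX2 differed by -0.095 ± 0.436 and 0.10 ± 0.260 and SPP1 by -0.10 ± 0.618 and 1.36 ± 0.751, and neither was called. The count in juveniles fell to 4 without MHLBJ replicate 1 and 5 without MHLBJ replicate 3, and the count in adults to 6 without DPLBA replicate 3 and 8 without MHLBA replicate 3.

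Markers of other cell types and of muscle moved with breed in the same libraries. Of all genes, 8.33% were called higher and 5.47% lower in DPLBJ, and 10.4% higher and 7.87% lower in DPLBA. In DPLBJ, 9 of 9 tested cartilage genes, 7 of 7 erythroid genes and 4 of 4 neutrophil genes were called higher, and 6 of 6 marrow adipocyte genes and 4 of 4 skeletal muscle genes were called lower, with 0 of these at an adjusted P under 0.05. In DPLBA, 3 of 10 cartilage genes, 2 of 4 erythroid genes and 4 of 4 neutrophil genes were called higher, and 0 of 6 marrow adipocyte genes and 2 of 2 skeletal muscle genes were called lower. In these adult lists 1 neutrophil gene had an adjusted P under 0.05, and 0 of the others. Only genes that passed the count filter were tested. In juveniles these were 9 of 11 cartilage, 7 of 9 erythroid and 4 of 6 skeletal muscle genes. In adults they were 10 of 11, 4 of 9 and 2 of 6. A gene near 0 in 1 group can pass this filter only through the other group, which sets the direction of its call beforehand. Such counts are a description. The erythroid list summed to between 1.14 and 6779 RPKM in DPLBJ, a range that overlapped the 1.32 to 9.22 RPKM of MHLBJ. The cartilage list summed to between 17.8 and 6402 RPKM in DPLBJ and to between 3.95 and 6.19 RPKM in MHLBJ. The part of these cell types in the difference of FAM117A was not tested. In RNA of whole tissue, fewer cells of a type and less RNA per cell cannot be told apart.

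Between stages, FAM117A was not called in the MH long bone, where 2.91% of genes were called. The difference between MHLBJ and MHLBA was 0.30 ± 0.970 (edgeR, P = 0.768, adjusted P = 0.998, exact permutation P = 0.6), and its sign changed with the library left out. Between DPLBJ and DPLBA, where 3.14% of genes were called, it was -0.31 ± 1.08, given as a description. COL1A2 differed by 0.20 ± 0.902 and 0.013 ± 1.00 in the same comparisons. With standard errors of this size, a stage difference of 2-fold was not detectable.

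In the pituitary, FAM117A was lower in DPPJ than in MHPJ by 1.29 ± 0.159 on the log2 scale (edgeR, P = 0.000188, adjusted P = 0.0143, exact permutation P = 0.1), and the groups did not overlap. In this comparison 20.3% of all genes were called, with 12.7% called lower in DPPJ, and 40.4% did not overlap. In adults, DPPA and MHPA overlapped, with a difference of 0.34 ± 0.363 (edgeR, P = 0.389, adjusted P = 0.795, exact permutation P = 0.4), where 2.93% of genes were called. FAM117A was called higher in MHPJ than in MHPA, by 1.12 ± 0.335 (edgeR, P = 0.0156, adjusted P = 0.378, exact permutation P = 0.1), where 7.74% of all genes were called, and it did not pass the adjustment. The call was lost without MHPA replicate 2 or 3, with differences of 1.05 and 0.93. Between DPPJ and DPPA, where 3.53% of genes were called, it differed by -0.48 ± 0.221 (edgeR, P = 0.0690, adjusted P = 0.446, exact permutation P = 0.2). COL1A2 differed by -2.72 ± 1.81 between DPPJ and MHPJ in the edgeR fit (P = 0.184, adjusted P = 0.340, exact permutation P = 1.0), but by -0.027 between the means of log2(CPM + 1), since MHPJ replicate 2 holds most of its reads.

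Hormone genes differed between the same pituitary groups. All 12 hormone and lineage genes were called higher in DPPJ than in MHPJ, where 7.6% of all genes were called higher, with 11 at an adjusted P under 0.05. Apart from CHGA, they had means of at most 2.98 RPKM in MHPJ. They could therefore pass the count filter through DPPJ alone, which sets the direction of such calls beforehand. Of the 7 myelin and glia genes 1 was called lower, a share near the 12.7% of all genes. The myelin and glia list summed to between 118 and 3607 RPKM in DPPJ and to between 4964 and 6972 RPKM in MHPJ. In the adult groups, DPPA replicate 1 and MHPA replicate 1, which had the least GH1 of their groups, had the most FAM117A of their groups, at 166 and 152 RPKM. Every pituitary library that nearly lacked GH1, those of MHPJ included, had at least 152 RPKM of FAM117A. All other pituitary libraries had at most 140 RPKM, so the order of FAM117A separated the libraries by GH1 across breeds and stages. The part of tissue content in the breed difference of FAM117A was not tested.

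FAM117A was higher in the long bone than in the pituitary of MHs, whose levels did not choose the gene. The MHPJ libraries and MHPA replicate 1 nearly lacked GH1, so the juvenile comparison holds no pituitary library rich in this hormone. Both tissues came from the same 12 horses by the series' description, which does not say which libraries share a horse, so the fit treats them as separate. The difference was 4.67 ± 0.603 on the log2 scale between MHLBJ and MHPJ (edgeR, P = 0.000207, adjusted P = 0.00749, exact permutation P = 0.1), where 32.7% of genes were called. Between MHLBA and MHPA it was 5.52 ± 1.08 (edgeR, P = 0.00170, adjusted P = 0.0228, exact permutation P = 0.1), where 27.1% were called. COL1A2 was higher by 5.05 ± 1.99 in juveniles (edgeR, P = 0.0433, adjusted P = 0.103, exact permutation P = 0.1) and by 7.52 ± 1.17 in adults (edgeR, P = 0.000456, adjusted P = 0.0132, exact permutation P = 0.1). MHPJ replicate 2 holds most of the COL1A2 reads of its group. Between the means of log2(CPM + 1), the juvenile difference was 7.37 for COL1A2 and 4.27 for FAM117A, and the adult difference 6.79 and 4.72. The relatives FAM117B and GLCCI1 were not called in any of the 10 comparisons.

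**Figure D5:**
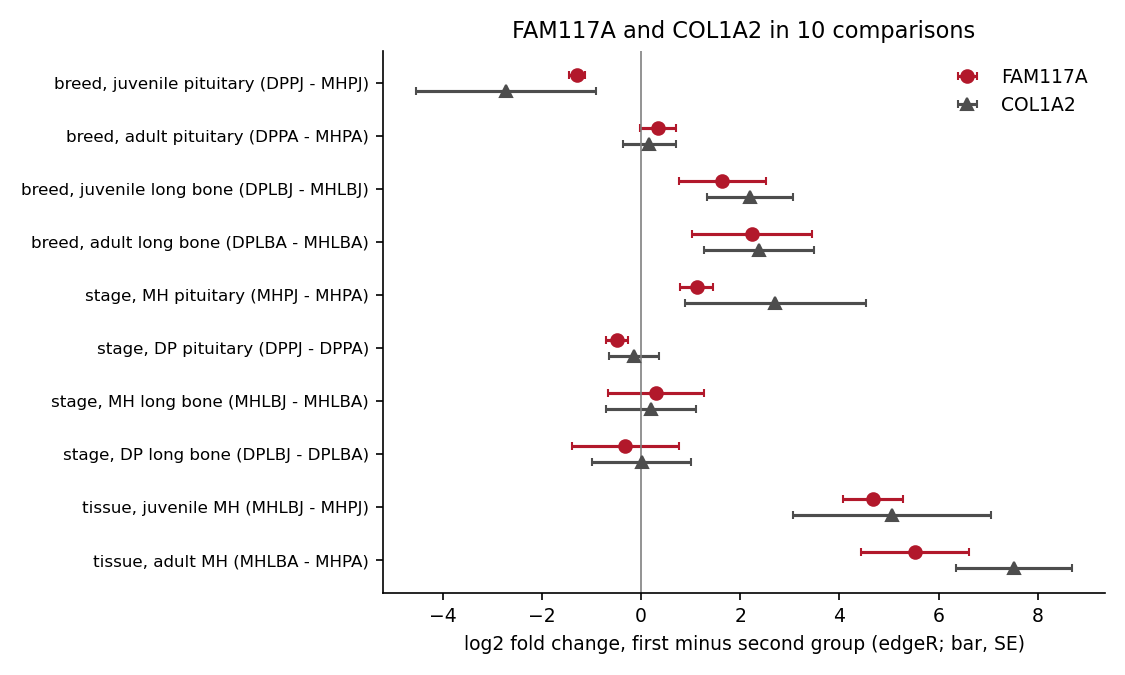
Log2 fold change of FAM117A (circles) and COL1A2 (triangles) in 10 comparisons between groups of 3 libraries, with the SE as a bar. Both genes were higher in the long bone than in the pituitary of MHs, by 4.67 and 5.05 in juveniles. MHPJ replicate 2 holds most of the COL1A2 reads of its group, and between means of log2(CPM + 1) these differences were 4.27 and 7.37. In the juvenile pituitary FAM117A was lower in DPs by 1.29 on the log2 scale.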

How the data were processed

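RNA-seq of 24 horse libraries was used. The submitters' processing notes name TopHat2 as a tool, whereas the methods name Salmon for mapping and quantification, so which of them the authors used for the deposited files is not settled, and the strand setting is not given in the sources used here. The deposited count of reads per gene is not normalized, and the deposited RPKM corrects the reads for gene length and for library depth. Counts were tested with edgeR 4.0.16 (quasi-likelihood, TMM, filterByExpr with a minimum count of 10, Benjamini-Hochberg adjustment over all tested genes) on the 6 libraries of each pair of groups, and the steps were tested on simulated data. Correlations used log2(CPM + 1) and 100000 permutations, or all pairings for 6 libraries. DESeq2 1.42.0, limma 3.58.1, other filters and scalings, left-out libraries and a replicate block were alternatives. Correlation P values were adjusted over all genes of at least 10 CPM, in place of the list of osteoblast genes first planned. The gene and the marker lists were chosen with earlier results of these data known. Genes named are FAM117A, the list genes, the 10 most like FAM117A per tissue, the 5 highest in the DP long bone beside it, and its neighbours. Of 147 list symbols, 129 had a row. Same-numbered libraries deviated together in the adult pituitary (r of 0.439 to 0.697) and not in the other comparisons. The series' description counts 12 horses for 24 libraries, which allows 3 horses per group and 2 tissues per horse, but the labels do not tie libraries to horses. Exact permutation tests of 3 libraries against 3 were added after the data were seen, beside the edgeR P on which calls rest. Gene order was read from the RefSeq annotation, and sequences were not used here.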

Additional observations from a re-analysis of the deposited data

Results flagged for a closer look

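The breed difference of FAM117A in the pituitary differed between stages. It was -1.29 ± 0.159 on the log2 scale in juveniles (DPPJ minus MHPJ) and 0.34 ± 0.363 in adults (DPPA minus MHPA), and the difference between them was -1.61 ± 0.397 (edgeR interaction term over 12 libraries, P = 0.00218, adjusted P = 0.153 over 15200 genes, exact permutation P = 0.02), so it did not pass the correction. The exact test permuted breed within each stage over 400 arrangements, was two-sided, used log2(CPM + 1), where the difference was -1.66, and could give no P below 0.005. Its null is no breed difference at either stage. Unlike the edgeR term, it therefore does not test whether the breed differences of the 2 stages are equal. FAM117A was lower in each of the 3 DPPJ libraries than in each MHPJ library, while DPPA and MHPA overlapped. All 3 MHPJ libraries and 1 library each of DPPA and MHPA held almost no GH1, and the part of this in the difference was not tested.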

How the results depend on the processing

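With all libraries kept, FAM117A kept its direction in 80 of 80 alternative fits, and its side of the threshold in all but 1, the untested juvenile long bone difference, which DESeq2 called at 1.66. In the juvenile pituitary the adjusted P ran from 4.7e-15 to 0.0853 and in the MH pituitary stage comparison from 0.0506 to 0.673. Leaving out 1 library gave -1.35 to -1.17 for the juvenile pituitary, 0.93 to 1.51 for MHPJ against MHPA, -0.42 to 1.88 for MHLBJ against MHLBA (-0.42 with MHLBJ replicate 2 left out, and -0.13 and -0.11 with MHLBA replicates 1 and 3 left out) and -1.34 to 0.90 for DPLBJ against DPLBA (0.19 with DPLBJ replicate 2 left out and 0.90 with DPLBA replicate 2 left out). The osteoblast genes called in the juvenile long bone, 10, became 6 with all 12 libraries fitted together, 4 with the replicate block and 4 to 14 with 1 library left out, and those in the adult long bone, 14, became 13 to 16 with all libraries kept and 6 to 14 with 1 library left out. The 1 called between DPLBJ and DPLBA became 2 with DESeq2, 3 without the filter, 2 with all 12 libraries, 2 with the replicate block and 0 to 4 with 1 left out. The block changed no call of FAM117A, and the cause of these shifts was not tested. The correlation with COL1A2 without the 2 farthest libraries was 0.972 in DP (a description) and 0.992 (exact permutation P = 0.250) in MH long bone, where 4 libraries allow few pairings. In the pituitary its sign turned with Spearman's rho (-0.16), log2(RPKM + 0.1) (-0.036), no TMM factors (-0.011) and without the 2 farthest libraries (-0.23), and leaving out 1 gave -0.53 to 0.35 (-0.039 without DPPJ replicate 3, -0.021 without DPPA replicate 1, -0.53 without MHPJ replicate 2 and -0.023 without MHPA replicate 3). Over 12 long bone libraries it was 0.985 to 0.991. Depth did not limit FAM117A, with at least 2576 reads per library, whereas COL1A2 had as few as 58 reads in the pituitary.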
